A study of Mus musculus with 36 samples.

Results

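Of the 19 Wnt ligand genes of the mouse, 8 lie as neighbours at 4 loci. They are Wnt1 with Wnt10b on chromosome 15, Wnt3 with Wnt9b and Wnt3a with Wnt9a on chromosome 11, and Wnt6 with Wnt10a on chromosome 1. The 8 genes were chosen by position in mm10, with no measured value in the rule, and their promoters were 8 of the 21938 protein-coding promoters measured. The study profiled 3 histone marks by chromatin immunoprecipitation and sequencing in mouse hippocampal tissue at postnatal day 0 (P0) and in neurospheres, free-floating cultures of neural progenitors enriched from P0 hippocampi and passaged before use. Ctrl mice were labelled Kdm2bfl/+ or Kdm2bfl/fl, so they carried floxed alleles as well, and cKO mice were labelled Kdm2bEmx1-delta-CxxC, a deletion of the CxxC zinc finger of KDM2B driven by Emx1-Cre. Emx1-Cre acts in the progenitors of the dorsal telencephalon, and P0 hippocampus also holds cells of other origins. H2AK119ub1, H3K27me3 and H3K36me2 were each measured in 2 Ctrl and 2 cKO libraries of each source, which gives 24 libraries with a file.

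Wnt ligands are secreted lipid-modified proteins that bind Frizzled receptors with LRP co-receptors and, in the canonical branch, stabilise beta-catenin. In the embryonic hippocampus they come largely from the cortical hem, at the edge of the dentate and hippocampal field. Polycomb repressive complex 1 ubiquitinates histone H2A (H2AK119ub1) and complex 2 trimethylates H3K27 (H3K27me3), KDM2B brings a variant of complex 1 to unmethylated CpG islands through its CxxC domain, and promoters of developmental genes that a tissue does not use often lie inside wide domains of both marks. H3K36me2 is removed by KDM2 demethylases and is as a rule found outside such domains.

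The start sites of Wnt10b (chr15:98770712-98778150, minus strand) and Wnt1 (chr15:98789857-98793837, plus strand) were 11.707 kb apart, the shortest distance of the 4 pairs. Those of Wnt3a (chr11:59248033-59290752, minus strand) and Wnt9a (chr11:59306928-59333552, plus strand) were 16.176 kb apart. Wnt9b (chr11:103727364-103749821, minus strand) and Wnt3 (chr11:103774150-103817957, plus strand) were the most distant at 24.329 kb. These 3 pairs are transcribed head to head, away from each other. Wnt6 (chr1:74771892-74785322) and Wnt10a (chr1:74791516-74804179) both lie on the plus strand in tandem, 19.624 kb from start to start.

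The sequences upstream of the starts are shown because KDM2B binds CpG dinucleotides and because breaks in the marks, described further on, fell at some of these starts. They are the 250 bases before the RefSeq start in GRCm38.p6, the assembly behind mm10, written 5′ to 3′ on the gene's strand with each CG in capitals, and 7 of the 8 genes were matched by symbol. Wnt9a lies at chr11:59306680-59306929 (plus), Wnt3a at chr11:59290752-59291001 (minus), Wnt6 at chr1:74771642-74771891 (plus), Wnt1 at chr15:98789607-98789856 (plus) and Wnt10b at chr15:98778151-98778400 (minus).
Wnt9a: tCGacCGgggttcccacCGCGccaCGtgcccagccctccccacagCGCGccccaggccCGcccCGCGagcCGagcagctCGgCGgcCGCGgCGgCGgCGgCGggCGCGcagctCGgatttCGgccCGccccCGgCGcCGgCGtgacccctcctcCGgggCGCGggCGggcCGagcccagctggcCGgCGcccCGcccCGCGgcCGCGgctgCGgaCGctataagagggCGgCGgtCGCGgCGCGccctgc
Wnt3a: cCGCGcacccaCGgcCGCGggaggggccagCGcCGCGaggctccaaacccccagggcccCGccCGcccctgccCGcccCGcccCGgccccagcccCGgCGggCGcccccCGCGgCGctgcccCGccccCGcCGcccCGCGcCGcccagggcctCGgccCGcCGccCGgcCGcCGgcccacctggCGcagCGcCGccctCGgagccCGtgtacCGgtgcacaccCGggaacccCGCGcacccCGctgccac
Wnt6: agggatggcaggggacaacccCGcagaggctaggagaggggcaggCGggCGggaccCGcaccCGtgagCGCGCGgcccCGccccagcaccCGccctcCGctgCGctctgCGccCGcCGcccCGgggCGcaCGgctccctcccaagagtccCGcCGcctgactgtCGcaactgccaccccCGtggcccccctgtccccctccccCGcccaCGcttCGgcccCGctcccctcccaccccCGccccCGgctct
Wnt1: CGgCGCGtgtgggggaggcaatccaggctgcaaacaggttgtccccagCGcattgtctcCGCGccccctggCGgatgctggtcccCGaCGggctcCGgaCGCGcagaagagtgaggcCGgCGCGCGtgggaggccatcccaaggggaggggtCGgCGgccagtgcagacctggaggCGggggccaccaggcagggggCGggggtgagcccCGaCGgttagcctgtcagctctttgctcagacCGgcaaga
Wnt10b: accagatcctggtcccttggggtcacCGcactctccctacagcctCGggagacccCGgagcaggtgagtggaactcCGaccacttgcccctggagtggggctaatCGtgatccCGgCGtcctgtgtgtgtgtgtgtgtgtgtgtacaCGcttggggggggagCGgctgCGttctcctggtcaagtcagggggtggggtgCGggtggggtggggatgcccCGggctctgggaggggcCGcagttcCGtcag

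The Wnt9a sequence held 48 CpG and the Wnt3a sequence 41, on opposite sides of one interval. Wnt6 had 28, Wnt1 23, Wnt3 and Wnt9b 22 each, and Wnt10b 14. The median of the 7 matched genes was 23 CpG, against 6 over 27018 promoters of the table. Wnt10b had more CpG than 70.4% of those promoters and Wnt9a more than 99.8%.

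The deposited files list islands, stretches that the SICER program called as enriched over input DNA in one library, with a read count for each. Windows of 200 bp were merged across gaps of up to 600 bp, so that 2 neighbouring islands are at least 0.8 kb apart. For each gene the promoter was taken as the start site with 2 kb on either side. The covered share is the percentage of these 4 kb inside islands, and the island width is that of the island with the most overlap with the promoter. Counts per kb of that island were divided by the median over islands at all promoters of the same library (scaled counts per kb). A pair was called spanned where one island held both start sites. With 2 libraries against 2, the exact permutation test (two-sided) cannot give a p below 0.333, so the text states whether the libraries of the 2 genotypes overlap, beside the percentage of all promoters that do not overlap in the same direction. The labels do not say whether replicates came from separate animals, and all p-values measure only the spread between these libraries.

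Reads in islands ranged from 987329 to 6799122 in hippocampus and from 5025115 to 22021439 in neurospheres. Several libraries stood apart. In hippocampus H2AK119ub1 the first replicate of each genotype held 1015578 and 987329 reads in islands and the second 4215938 and 6799122. In neurosphere H3K36me2 the first cKO library had an island at 42.2% of all promoters and the other 3 libraries at 11.3% to 20.0%. The island files give no reading of the deleted Kdm2b domain, so the genotype labels were not checked. Among markers of the sources, 3 of 6 progenitor genes had no H3K27me3 island in any neurosphere library and 1 had one in both Ctrl libraries. All 6 of 6 genes of non-neural lineages, such as Gata4 and Myod1, had one in both Ctrl libraries, with a median width of 37.3 kb. Of 6 neuron genes, 1 had no island in any neurosphere library and 2 had one in both Ctrl libraries. Their covered share was higher in both cKO libraries at 3 of the 6 and lower at 1, against 8.54% and 13.3% of all promoters. In bulk samples such as these, fewer cells that carry a mark and less of the mark in each cell cannot be told apart.

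H3K27me3 covered all 8 promoters in neurospheres, and the islands were narrower in cKO. The width at Wnt1, a ligand needed for the midbrain and cerebellum, was 42.2 and 43 kb in the Ctrl libraries and 25.4 and 19.4 kb in the cKO libraries. At Wnt10b, which acts in bone and fat tissue, it was 42.2 and 43 kb against 14.2 and 11 kb. Both genes lay in a single island in Ctrl, so these are the same 2 Ctrl values, and the 2 genotypes did not overlap at either gene.

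Wnt3a, the ligand of the cortical hem on which hippocampal development depends, lay in islands of 105.8 and 48.8 kb in Ctrl against 32.4 and 30.2 kb in cKO. Wnt9a, a ligand of developing joints, shared the 2 Ctrl islands and had 3.2 and 30.2 kb in cKO. The 3.2 kb island of the first cKO library ended short of the Wnt9a start, which lay in a break of 0.8 kb.

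At Wnt6, a ligand of ectodermal and other epithelia, the cKO widths of 15.8 and 23.2 kb stood against Ctrl widths of 52 and 52.2 kb. At its neighbour Wnt10a, which acts in teeth and hair follicles, the same Ctrl island was set against 16.4 and 26.6 kb. Every cKO value at this locus was below both Ctrl values, and the Ctrl libraries differed from each other by less than in any other pair.

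Wnt3, required for the primitive streak, had 43 and 40.8 kb in Ctrl against 15 and 20 kb in cKO. Wnt9b, a ligand of the kidney and the face, had 36.2 and 61.2 kb in Ctrl against 31.8 and 31.2 kb in cKO. The Ctrl values of Wnt9b were far apart and the gap between the genotypes was the smallest of the 8 genes.

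Both cKO libraries were thus below both Ctrl libraries at 8 of 8 genes, which was the case at 16.8% of 8817 promoters with an island in any of these 4 libraries, and at 23.6% of the 888 promoters whose mean width was at least that of the narrowest member (27.6 kb). The median difference, cKO minus Ctrl, was -30.3 kb over the 8 genes and 0.7 kb over all 8817 promoters (2.7 kb over the 888). The 8 genes form 4 loci, and 6 of them shared islands in Ctrl, so they are not 8 separate observations. Whole-library values moved with the genotype as well: islands covered 283 and 268 Mb in Ctrl and 305 and 321 Mb in cKO, at 60.2 and 52.3 against 43.2 and 42.0 reads per kb of island. The part of this lower read density in the widths was not tested.

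Much of the width difference depended on short breaks. When islands no more than 1 kb apart were joined first, an alternative chosen after seeing that many breaks measured 0.8 kb, the joined islands of the 2 genotypes failed to overlap at 4 of the 8 genes (17.4% of all promoters), namely Wnt1, Wnt10b, Wnt3a and Wnt9a, and the mean difference was -14.35 kb instead of -32.7 kb. The joined island at Wnt1 measured 42.2 and 43 kb in Ctrl against 40.4 and 19.4 kb in cKO. At Wnt3a and Wnt9a it measured 105.8 and 108.8 kb in Ctrl against 90.2 and 89.8 kb in cKO. At Wnt6 it measured 64.6 and 52.2 kb against 62 and 23.2 kb, so that here the first cKO library fell between the Ctrl libraries.

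The total length under H3K27me3 differed much less than the island widths. In a window from 10 kb before the first gene to 10 kb after the second, islands of neurospheres covered 34.8 and 36.2 kb in Ctrl against 34.8 and 29.2 kb in cKO at Wnt1/Wnt10b, where the genotypes touched. The window of Wnt6/Wnt10a held 51.3 and 51.1 kb in Ctrl against 49.7 and 45.3 kb in cKO. That of Wnt3a/Wnt9a held 99.0 and 101 kb against 89.5 and 82.2 kb. At Wnt3/Wnt9b the values overlapped, with 82.6 and 95.4 kb in Ctrl against 92.0 and 73.8 kb in cKO.

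The promoters themselves stayed inside islands. The H3K27me3 covered share was 100% in all 4 neurosphere libraries at 7 genes, where this measure cannot show a loss or gain. Wnt9a was the exception, with 100% in both Ctrl and 80% in both cKO libraries, and 13.3% of all promoters had both cKO libraries lower. The 0.8 kb lacking in each cKO library lay at different places, across the Wnt9a start and first exon in the first library and in a Wnt9a intron in the second.

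One island spanned a pair in 6 of 8 cases of Ctrl neurospheres (4 pairs in 2 libraries) and in 1 of 8 cases of cKO. Wnt1/Wnt10b and Wnt6/Wnt10a were spanned in both Ctrl libraries but not in cKO. Wnt3a/Wnt9a was spanned in both Ctrl libraries and in the second cKO library, and Wnt3/Wnt9b, the pair with the longest interval, in none. Of all 3489 pairs of adjacent start sites 11.707 to 24.329 kb apart, the Wnt pairs included, 77 (2.21%) were spanned in both Ctrl libraries. Spanned in both Ctrl and neither cKO were 16 (0.459%), which include Wnt1/Wnt10b and Wnt6/Wnt10a. Among the 77, that share was 20.8%. With islands up to 1 kb apart joined, the cases were 6 in Ctrl and 4 in cKO.

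**Figure D1:**
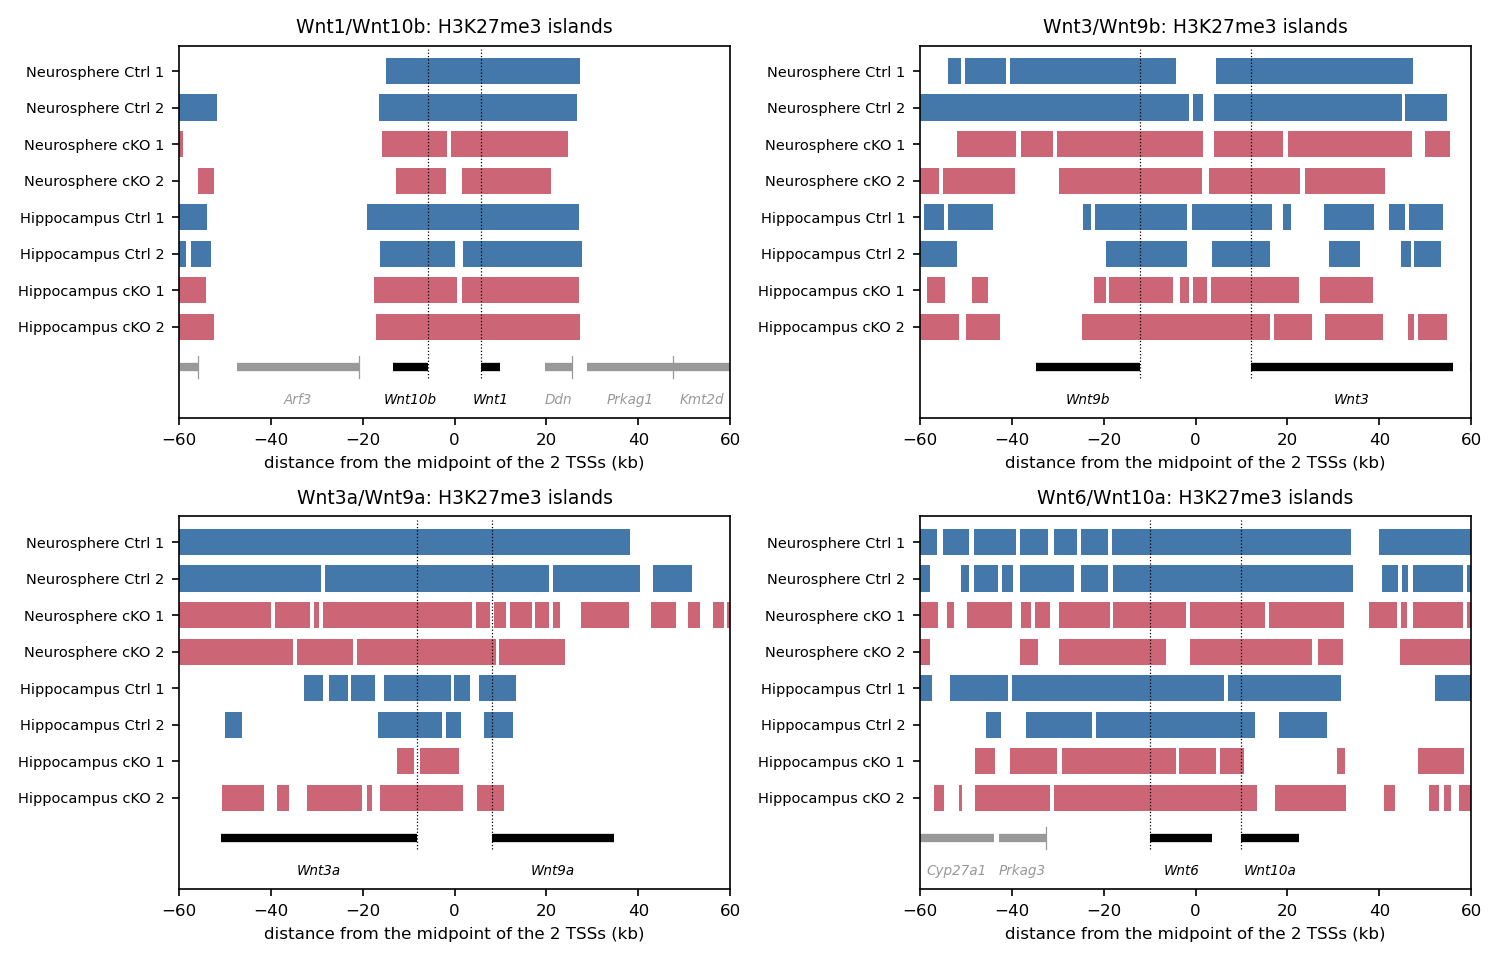
H3K27me3 islands at the 4 loci, drawn to scale, with the distance in kb from the midpoint between the 2 start sites (dotted lines) on the x axis and one row per library (blue, Ctrl; red, cKO). Black bars are the Wnt genes and grey bars are their neighbours. In neurospheres the unbroken Ctrl islands across Wnt10b/Wnt1 and Wnt6/Wnt10a are each cut once between the start sites in both cKO libraries.

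From 2 kb before one start site to 2 kb beyond the other, the neurosphere H3K27me3 breaks numbered 3 in the Ctrl libraries, all at Wnt3/Wnt9b, and 9 in the cKO libraries, of which 5 were no longer than 1 kb. At Wnt1/Wnt10b the first cKO library lacked chr15:98782401-98783200 and the second chr15:98782201-98785600, a break of 3.4 kb that contains the first one. The interval between these start sites was covered over 100% in both Ctrl and over 93.2% and 71.0% in the cKO libraries. At Wnt6/Wnt10a the breaks were chr1:74779601-74780400 and chr1:74775201-74780400, of 0.8 and 5.2 kb, with the same right end, both inside an intron of Wnt6. Here the interval was covered over 100% in both Ctrl and over 95.9% and 73.5% in cKO.

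In both pairs the shorter break of the first cKO library thus lay within the longer one of the second. Over all adjacent start sites at these distances with any island, 16.9% had a lower covered share of the interval in both cKO libraries. Wnt3a/Wnt9a did not separate the genotypes, with 100% in Ctrl and 93.0% and 100% in cKO. Wnt3/Wnt9b went the other way, with 64.7% and 86.8% in Ctrl and 90.1% and 94.2% in cKO, where 13.6% of intervals were higher in both cKO libraries.

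Some windows lacked an island in libraries of both marks, sources and genotypes, and the sequences there are shown for that reason. For each interval the windows uncovered in the largest number of the 16 H2AK119ub1 and H3K27me3 libraries were taken, and their middle 200 bases are printed from the plus strand of mm10, with each CG in capitals. The stretch between Wnt10b and Wnt1 lies at chr15:98784701-98784900, that between Wnt9b and Wnt3 at chr11:103764101-103764300, that between Wnt3a and Wnt9a at chr11:59302801-59303000, and that in the Wnt6 intron at chr1:74779801-74780000.
Wnt10b-Wnt1: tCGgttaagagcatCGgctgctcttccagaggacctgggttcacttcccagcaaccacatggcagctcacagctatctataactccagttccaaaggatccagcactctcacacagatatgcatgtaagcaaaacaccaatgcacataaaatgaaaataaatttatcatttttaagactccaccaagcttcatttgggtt
Wnt9b-Wnt3: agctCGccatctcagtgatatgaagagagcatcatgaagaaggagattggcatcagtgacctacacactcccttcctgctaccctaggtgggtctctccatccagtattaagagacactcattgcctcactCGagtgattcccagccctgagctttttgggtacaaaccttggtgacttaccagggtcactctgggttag
Wnt3a-Wnt9a: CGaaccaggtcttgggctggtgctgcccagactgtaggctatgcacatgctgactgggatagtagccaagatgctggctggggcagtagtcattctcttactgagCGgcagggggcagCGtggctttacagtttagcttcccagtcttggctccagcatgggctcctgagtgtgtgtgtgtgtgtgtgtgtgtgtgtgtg
Wnt6 intron: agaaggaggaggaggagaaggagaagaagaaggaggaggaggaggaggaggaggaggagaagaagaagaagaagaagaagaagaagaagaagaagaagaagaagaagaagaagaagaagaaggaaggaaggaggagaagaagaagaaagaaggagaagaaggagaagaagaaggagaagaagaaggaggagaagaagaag

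The window between Wnt10b and Wnt1 (chr15:98784601-98785000) lacked an island in 10 of the 16 libraries, 3 of them H3K27me3, and these 3 were the second cKO library of neurospheres and one library of each genotype of hippocampus. It was 60.25% repeat-masked, against 32.8% over the pair with 2 kb on either side. The window in the Wnt6 intron (chr1:74779601-74780200) was uncovered in 6 libraries, among them both cKO H3K27me3 libraries of neurospheres, and was 61% repeat-masked, against 13.3% over that pair, and its printed stretch is a run of AAG and AGG units. That between Wnt3a and Wnt9a (chr11:59302601-59303200) was uncovered in 8 libraries and 54.7% repeat-masked, against 20.3%. The window between Wnt9b and Wnt3 (chr11:103763801-103764600) was uncovered in the most libraries, 12 of 16, and was 12.1% repeat-masked, against 21.3% over the pair. The hippocampal H2AK119ub1 libraries with few reads in islands add to these numbers over most of each interval. How far repeats, where short reads align less well, set the position of the breaks was not tested.

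**Figure D2:**
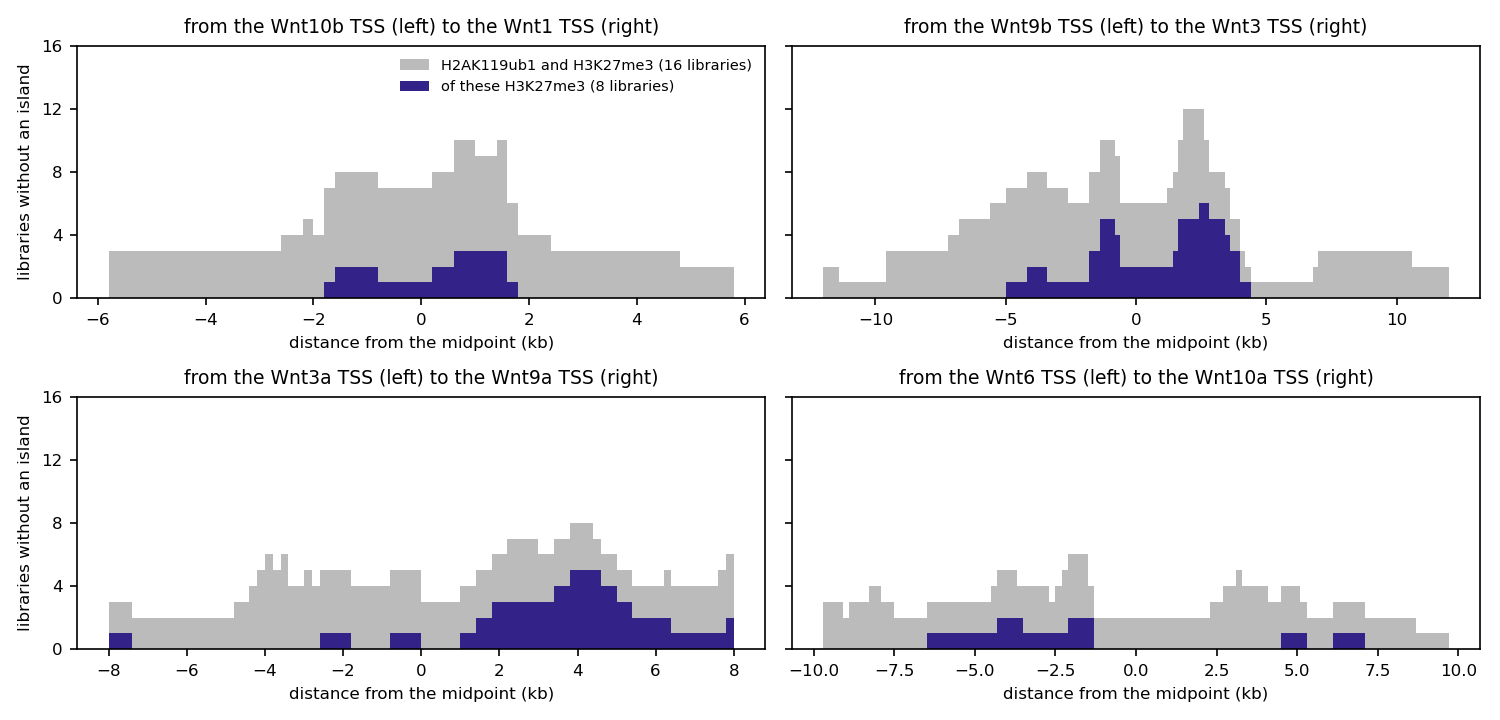
Number of libraries (y axis) without an island in each 200 bp window between the start sites of each pair, against the distance from the midpoint in kb. Grey bars count the 16 H2AK119ub1 and H3K27me3 libraries and dark bars the 8 H3K27me3 libraries among them; the highest grey bars reach 10, 12, 8 and 6 libraries.

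The density of reads inside the islands separated fewer genes than their width. In neurosphere H3K27me3, scaled counts per kb at Wnt10b were 2.17 and 2.10 in Ctrl and 1.40 and 1.15 in cKO. At Wnt6 they were 1.93 and 1.73 against 1.30 and 1.11, and at Wnt10a, from the same Ctrl islands, 1.63 and 1.40 in cKO. These 3 genes were lower in both cKO libraries, at a background of 27% of 3401 promoters with an island in all 4 libraries. Wnt1, on the other side of the Wnt10b break, was higher, with 2.17 and 2.10 in Ctrl and 2.23 and 2.33 in cKO (background 20.3%). After the island was divided in cKO, the Wnt1 side was therefore denser than the Wnt10b side in both libraries. Each Ctrl value at Wnt10b, Wnt1, Wnt6 and Wnt10a is the mean over an island that held both genes of the pair. Each cKO value there is that of an island with only one of them, so unlike spans are compared. The part of this in the differences was not tested. At Wnt3, Wnt9b, Wnt3a and Wnt9a the genotypes overlapped. Every value at the 8 genes was above 1, the median of promoter islands, in all 4 libraries.

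Counts were also tested over whole regions, formed by merging the islands of the 4 libraries, with edgeR's quasi-likelihood test and Benjamini-Hochberg adjustment over all regions called in all 4 libraries. The neurosphere H3K27me3 islands at the 8 genes fell into 5 such regions. The Wnt10b/Wnt1 region (chr15:98767601-98811200) held 5207 and 4245 counts, not scaled for depth, in Ctrl against 3021 and 2312 in cKO, a log2 fold change of -0.81 (SE 0.23, edgeR adjusted p = 0.206). The Wnt3a/Wnt9a region (chr11:59230401-59339200) held 9860 and 8068 counts against 5592 and 4883, a log2 fold change of -0.77 (SE 0.18, edgeR adjusted p = 0.190). Neither region passed the threshold of 0.05 after adjustment.

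The Wnt6/Wnt10a region had a log2 fold change of -0.87 (SE 0.19), Wnt3 -0.67 (SE 0.25) and Wnt9b -0.46 (SE 0.25), with edgeR adjusted p of 0.177, 0.257 and 0.364. All 5 fold changes were negative, as were those of 49% of all 11262 regions. Of the 5, 4 had an unadjusted p under 0.05, the exception being Wnt9b, against 8.94% of all regions that were lower at that level. edgeR called 0 of 11262 regions (0%) at an adjusted p under 0.05, with 2077 at an unadjusted p under 0.05, and DESeq2 called 734 regions, none of them at these genes. Without the first cKO library, edgeR called 4 of the 5 regions, among 2409 in all. With the called length of each library taken into account, which leaves the density, 1 of the 5 regions was called, that of Wnt6/Wnt10a (log2 fold change -0.44, edgeR adjusted p = 0.0294), among 303 of all 11262 regions.

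H2AK119ub1 in neurospheres was broken more often than H3K27me3 and varied more between replicates. Over the same stretches there were 9 breaks in the Ctrl libraries and 15 in the cKO libraries, of which 6 and 10 were no longer than 1 kb. Only the Wnt6/Wnt10a pair was spanned, in the first Ctrl library, and with islands up to 1 kb apart joined the cases were 5 in Ctrl and 4 in cKO.

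The H2AK119ub1 island at Wnt6 measured 33 and 15.6 kb in Ctrl against 1.6 and 4.6 kb in cKO. At Wnt10b it measured 24.4 and 17.8 kb against 3.4 and 14.2 kb, and at Wnt3a 24.4 and 18.2 kb against 12.4 and 8.4 kb. At these 3 of the 8 genes both cKO libraries were narrower, at a background of 9.28%. With islands up to 1 kb apart joined, the genotypes overlapped at Wnt10b (24.4 and 17.8 kb against 7.4 and 41.4 kb) and at Wnt3a (59.2 and 48.2 kb against 23.4 and 68 kb). Joined islands were narrower in both cKO libraries at 2 of the 8 genes, Wnt6 and Wnt10a, at a background of 8.2%. As deposited, at Wnt10a, next to Wnt6, the widths of 33 and 15.6 kb in Ctrl against 9.6 and 24 kb in cKO overlapped, as did those of Wnt1, Wnt9b and Wnt9a. Wnt3 had islands of 53 and 48.2 kb in the first Ctrl and the second cKO library and none in the other 2, which also held the fewest H2AK119ub1 reads in islands (5025115 and 6028205).

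Wnt6 was also the one gene whose H2AK119ub1 covered share separated the genotypes, with 100% in both Ctrl and 72.3% and 87.7% in the cKO libraries (background 7.79%). In the first cKO library the start and first exon of Wnt6 lay in a break, chr1:74771801-74772600. The break of the second, chr1:74773401-74774200, lay in its intron. Breaks across a start site also occurred in Ctrl. The CpG-dense Wnt9a start lay in a break of 0.8 kb in the second Ctrl library and in one of 2.2 kb in the first cKO library, and that of Wnt10b in one of 4.6 kb in the first cKO library.

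**Figure D3:**
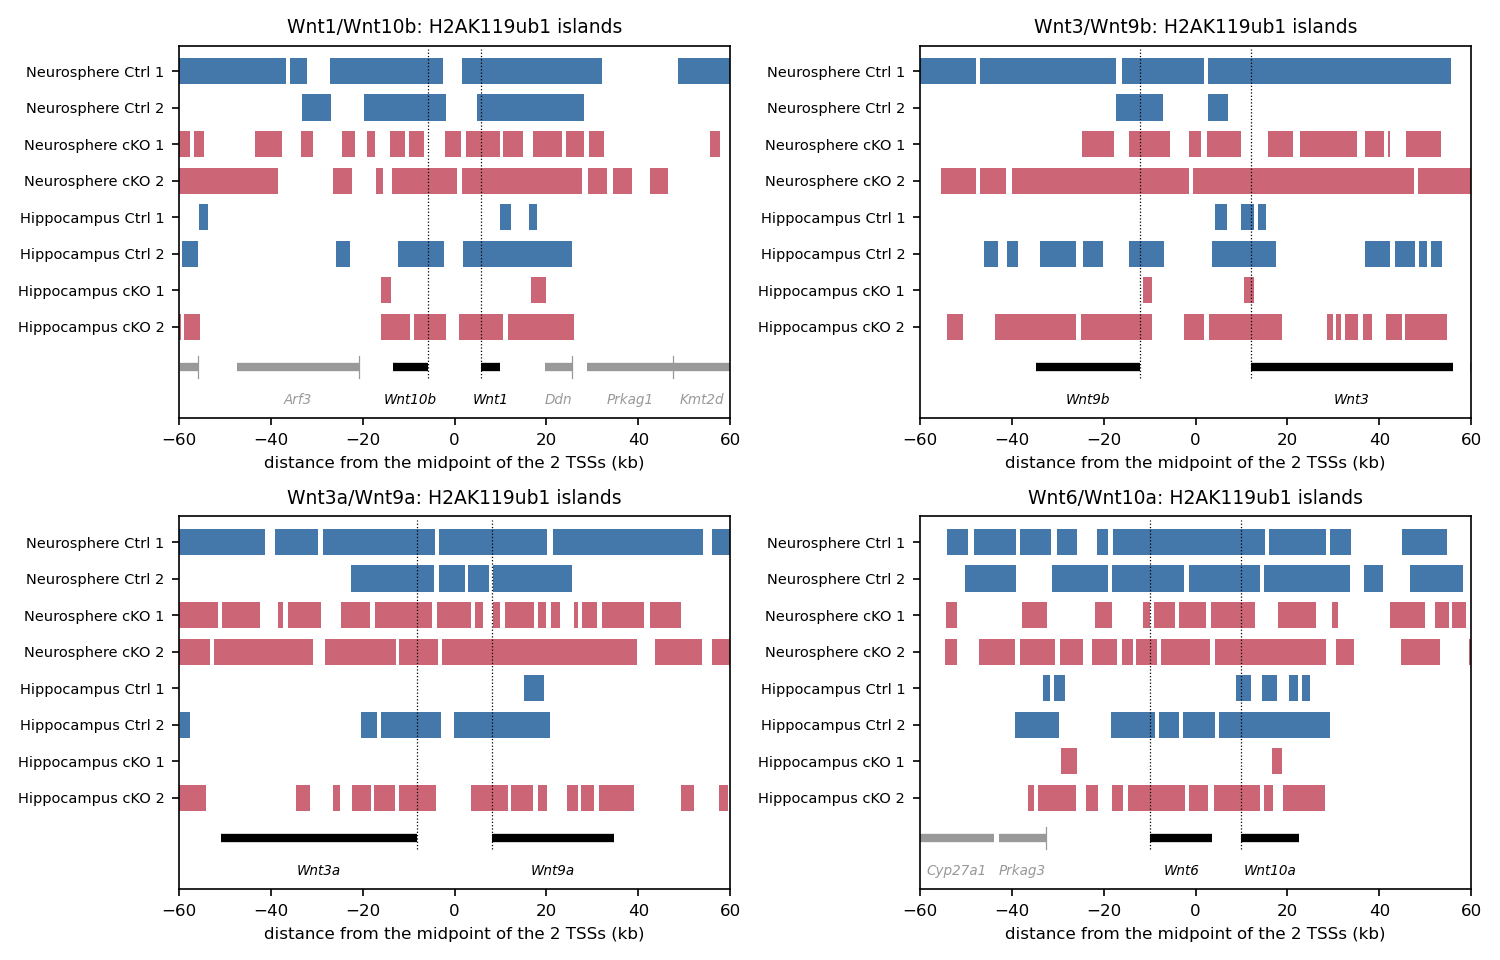
H2AK119ub1 islands at the 4 loci, with one row per library (blue, Ctrl; red, cKO), the distance in kb from the midpoint between the 2 start sites (dotted lines) on the x axis, Wnt genes in black and neighbours in grey. The first Ctrl and cKO libraries of hippocampus show few and short islands and held 1015578 and 987329 reads in islands.

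Scaled H2AK119ub1 counts per kb in neurospheres were lower in both cKO libraries at 5 of 7 genes with an island in all 4 libraries, at a background of 30.8% of 1474 promoters. At Wnt6 they were 1.49 and 1.23 in Ctrl and 1.07 and 1.19 in cKO, and at Wnt10a 1.49 and 1.36 against 1.20 and 1.24. Wnt9a had 1.39 and 1.27 against 1.11 and 1.12. Wnt10b and Wnt9b also separated, by smaller amounts, and Wnt1 and Wnt3a overlapped. The mean of every one of the 7 was lower in cKO, which held for 70.9% of all promoters measured. None of the 5 merged H2AK119ub1 regions passed the test (edgeR adjusted p 0.9998 for each), and 0% of 6060 regions were called. Of the 5, 0 had an unadjusted edgeR p under 0.05, and DESeq2 called 0 of the 5. In counts simulated with one spread for all regions, estimated from these libraries, edgeR recovered 6.5% of 4-fold changes over regions of all sizes. The lack of calls therefore does not show a lack of change. Without the first Ctrl library, edgeR called 671 regions in all, and of the 5 the Wnt9b/Wnt3 region, with a higher value in cKO (2.13 on the log2 scale, edgeR adjusted p = 7.4e-06).

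**Figure D4:**
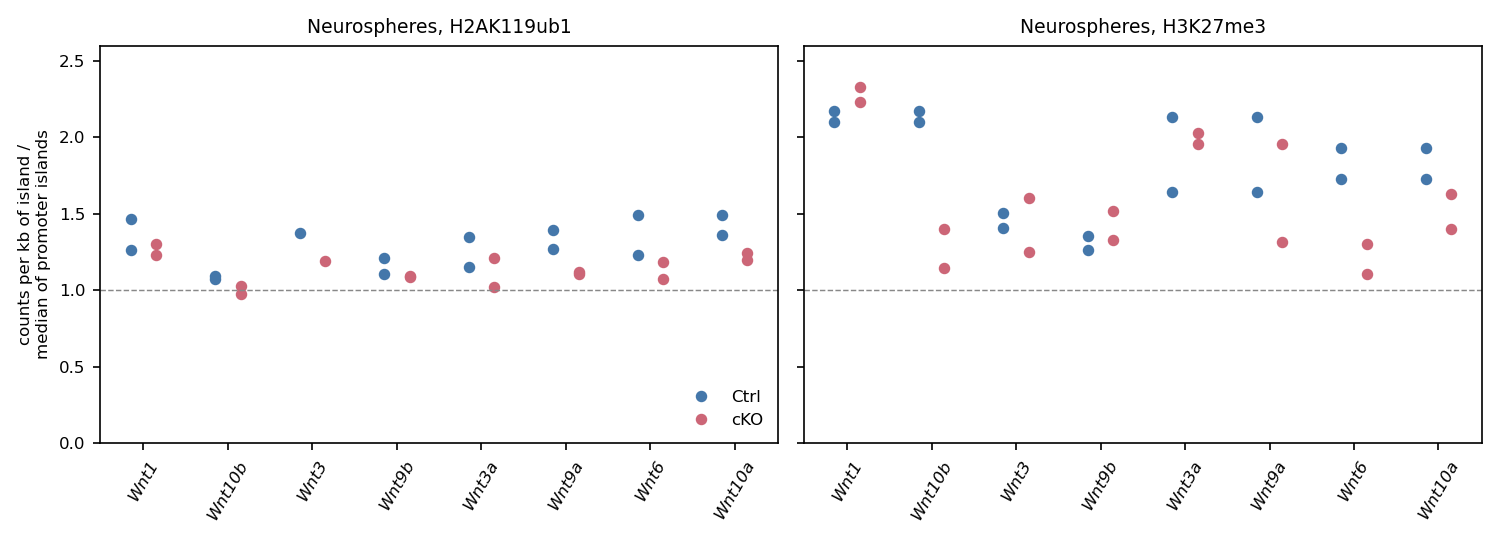
Counts per kb of the island at each of the 8 promoters in neurospheres, divided by the median of all promoter islands of the same library (dashed line at 1), for H2AK119ub1 and H3K27me3. Each point is one library, Ctrl or cKO, and a promoter without an island has no point.

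In hippocampal tissue H3K27me3 lay at all 8 promoters in 3 libraries and at 7 in the first cKO library, where Wnt9a had none. Both cKO widths were below both Ctrl widths at Wnt9a (8 and 6.4 kb against 0 and 5.8 kb), which occurred at 3.1% of promoters. The reverse was found at Wnt3, with 17.4 and 12.6 kb in Ctrl against 19 and 41 kb in cKO (background 15.8%). At Wnt1, Wnt10b, Wnt9b, Wnt3a, Wnt6 and Wnt10a the genotypes overlapped. The widths at Wnt1, for instance, were 46 and 26 kb in Ctrl against 25.4 and 44.4 kb in cKO.

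No hippocampal H3K27me3 covered share was lower in both cKO libraries (0 of 8 genes, 2.58% of promoters). A pair was spanned in 2 of 8 Ctrl and 3 of 8 cKO cases. Wnt1/Wnt10b and Wnt6/Wnt10a were each spanned in one library of either genotype, and Wnt3/Wnt9b in the second cKO library alone, where one island of 41 kb ran across both starts. Scaled counts per kb separated Wnt9b only, upwards, with 1.25 and 1.04 in Ctrl and 1.28 and 2.01 in cKO (background 20.6%). The second cKO library had the highest scaled value at all 8 genes, between 1.70 and 3.28. In the merged regions the log2 fold changes were -0.55 (SE 0.29) at Wnt6/Wnt10a, -0.45 (SE 0.49) at Wnt3a, -0.26 (SE 0.39) at Wnt10b/Wnt1 and near 0 at Wnt9b/Wnt3, with edgeR adjusted p from 0.994 to 1.00. edgeR called 0% of 4387 regions, 0 of these 4 had an unadjusted p under 0.05, and DESeq2 called 0 of the 4.

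Hippocampal H2AK119ub1 separated the genotypes at 0 of 8 genes in covered share or width (backgrounds for lower values 1.7% and 1.78%). Islands lay at 2, 8, 2 and 8 of the promoters in the first and second Ctrl and the first and second cKO libraries, in step with the reads in islands. At Wnt3a both genotypes had covered shares of 0 and 100%. The second library of each genotype held more reads in islands. Taken alone, these 2 gave widths of 23.8 kb in Ctrl against 9.6 kb in cKO at Wnt1, 24.2 and 10 kb at Wnt10a, and 20.8 and 8 kb at Wnt9a. At Wnt10b and Wnt3a the Ctrl library also had the wider island, and at Wnt3, Wnt9b and Wnt6 the cKO library had. With islands up to 1 kb apart joined, Wnt1 had 23.8 kb in Ctrl against 25 kb in cKO. The cKO library then also had the wider island at Wnt10b (10 against 14.2 kb), Wnt3a (17.4 against 18.2 kb), Wnt3 and Wnt9b. At Wnt9a (20.8 against 13.4 kb), Wnt10a (47.6 against 12.8 kb) and Wnt6 (47.6 against 20.8 kb) the Ctrl library had. With one library a genotype no test is possible. Of the merged regions, 3 held a start site of these genes, and 0 of them were called by edgeR (0% of 2750 regions), by DESeq2 or at an unadjusted p under 0.05.

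Whether the effect of the genotype differed between neurospheres and hippocampus was tested as an interaction over the 8 libraries of a mark. At these loci 3 H2AK119ub1 and 4 H3K27me3 regions were tested. They were merged anew over the 8 libraries and normalised over regions called in all 8. The estimates therefore need not equal the difference between the fold changes given above for each source. The interaction estimates for H3K27me3 were 0.06 (SE 0.37) at Wnt6/Wnt10a, 0.09 (SE 0.76) at Wnt3a/Wnt9a, -0.01 (SE 0.36) at Wnt9b/Wnt3 and -0.17 (SE 0.51) at Wnt10b/Wnt1 on the log2 scale. edgeR adjusted p ranged from 0.928 to 0.998 over the 7 regions, and 0% of 2373 H3K27me3 regions and 0% of 1555 H2AK119ub1 regions were called. The neurosphere widths and the hippocampal widths are therefore given side by side, and a difference between the sources was not shown.

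In the neurosphere libraries with the most H2AK119ub1 reads in islands, the 2 Polycomb marks largely overlapped at these loci. In the first Ctrl and the second cKO library of neurospheres, 87.9% to 98.3% and 86.8% to 100% of the H3K27me3 length lay inside H2AK119ub1 islands at the 4 loci. In the second Ctrl library this share was 96.5% at Wnt6/Wnt10a and 13.8% at Wnt3/Wnt9b, and in the first cKO library it was 55.2% to 81.9%. Of the hippocampal libraries, the second Ctrl library had shares of 59.6% to 90.5% and the second cKO library 45.7% to 84.8%. In the first hippocampal library of either genotype the share was at most 20.6%. The H3K27me3 and H2AK119ub1 libraries with the same number are separate precipitations. In neurospheres the lower shares belong to the 2 H2AK119ub1 libraries with fewer reads in islands, and the part of depth was not tested.

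No H3K36me2 island overlapped any of the 8 promoters in the 4 hippocampal libraries. The nearest one lay between 2.25 and 453 kb from the start, over all genes and libraries. In neurospheres the Wnt3 promoter had an island of 31.4 kb in the first Ctrl and of 14.8 kb in the first cKO library and none in the others. The second Ctrl library had H3K36me2 islands over 35.6 kb elsewhere in the Wnt3/Wnt9b window. Wnt10b, Wnt10a, Wnt1, Wnt9a and Wnt6 had an island in the first cKO library only, covering 100%, 100%, 68.6%, 26.8% and 17.3% of their promoters, and Wnt9b and Wnt3a had none anywhere. That library had islands at 42.2% of all promoters, and without it no member had a cKO island. The genotypes overlapped at each of the 6 genes with an island (backgrounds 5.61% lower and 4.23% higher). Over the windows of the 4 loci, 75.0% to 96.9% of the H3K36me2 length in the first cKO neurosphere library lay inside H3K27me3 islands. These islands covered 80.8% to 95.1% of the windows. At Wnt3/Wnt9b the share was 69.5% and 72.6% in Ctrl, where H3K27me3 covered 74.7% and 86.3%. At Wnt1/Wnt10b it was 0% and 76.9% in Ctrl and 40% in the second cKO library, and at Wnt6/Wnt10a 100% in the first Ctrl library.

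Some promoters flanking the pairs lay outside the domains and others did not. In neurosphere H3K27me3 the promoter of Arf3, 14.936 kb beyond the Wnt10b start, was covered over 0% in all 4 libraries, as were those of Arf1, Arf2, Snap47 and Prkag1. Ddn, a neuronal gene on the Wnt1 side, was covered over 92.8% and 77.8% in Ctrl and over 27.8% and 0% in cKO. Among the 2 nearest genes on each side of each pair, it was the one promoter lower in both cKO libraries. Of all promoters, 13.3% were lower in both. The Ddn start lay inside the Ctrl islands that held Wnt1, so it is not a separate observation. Cdk5r2 and Fev beyond Wnt10a and Rprml beyond Wnt9b lay inside H3K27me3 islands over 100% in all 4. Fkbp11, beyond Arf3, was covered over 0% and 100% in Ctrl and over 0% and 49.9% in cKO. Gosr2 and Nsf were covered over at most 26.4% in any of the 4. The H2AK119ub1 islands of neurospheres covered the Arf3 promoter over 100% and 20.3% in Ctrl and over 35% and 9.7% in cKO.

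The 11 Wnt ligand genes without a Wnt neighbour had narrower H3K27me3 islands to begin with. Their median width in neurospheres was 9.6 kb in Ctrl against 6.9 kb in cKO, against 50.4 and 20.5 kb for the 8 paired genes. Both cKO libraries were narrower at 6 of the 11 and wider at 1, against 16.8% and 16.1% of all promoters. Covered share, which did not separate the paired genes apart from Wnt9a, was lower in both cKO libraries at 3 of the 11 (background 13.3%). Wnt5b had 100% in both Ctrl and 0% in both cKO libraries, Wnt7b 68.2% and 100% against 0%, and Wnt2 74.6% and 64.6% against 39.6% and 0%. Wnt16 was higher (94.35% in both Ctrl, 100% in both cKO libraries), where 8.54% of all promoters were. In hippocampus, Wnt8a was higher in H2AK119ub1 (0% in both Ctrl against 52.8% and 82.8% in cKO, background 2.03%). It was also higher in H3K27me3 (87.8% and 52.8% against 100% in both), as was Wnt5a (0% in both against 1.28% and 31.3%), at a background of 11.8%. Neurosphere H3K36me2 was lower at Wnt8a (87.8% and 100% against 77.2% and 0%, background 5.61%). The difference between the paired and the other ligands was not tested.

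In neurosphere H3K27me3, most receptor and effector genes of the pathway had no island, and most secreted antagonists and agonists had one. Of 12 receptor genes (the Frizzled genes, Lrp5 and Lrp6), 9 had no island in any of the 4 libraries and 1 was narrower in both cKO libraries. Among 11 secreted antagonists, such as the Sfrp and Dkk genes, 9 had an island in both Ctrl libraries, 3 were narrower and 3 wider. The 4 R-spondin genes, which encode agonists, were covered in both Ctrl libraries, and 3 of them had wider islands in both cKO libraries and 0 narrower ones. Of 9 effectors, among them Lef1 and Axin2, 6 had no island in any library and 1 was narrower. Over all promoters with an H3K27me3 island, 16.8% were narrower and 16.1% wider in both cKO libraries. In H2AK119ub1 of neurospheres, 6 of the 12 receptor genes were narrower in both cKO libraries, 0 of the antagonists, 0 of the agonists and 1 of the effectors, at the same background of 9.28%.

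Genes on other chromosomes with the most similar profile of width over the 16 H2AK119ub1 and H3K27me3 libraries were sought by Pearson's r. It was taken on log2(width in kb + 1), for the gene of each pair with the widest mean Ctrl island in neurosphere H3K27me3. Where both genes of a pair shared the Ctrl islands and so tied, the first named was used (Wnt1, Wnt3a and Wnt6). For Wnt1 these were Wnk4 (r = 0.956) and Trp73 (r = 0.951), for Wnt9b Lhx5 (0.948) and Smoc2 (0.936), and for Wnt3a Foxc2 (0.955) and Mal (0.948). For Wnt6 they were Sptb (0.958) and Wnt10b (0.948), a member of another pair. The 16 points share the depth and the mark of each library, which move all widths together, and the values are a description.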

How the data were processed

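Per the labels and the study's methods, the authors trimmed reads with cutadapt, aligned them to mm10 with Bowtie2 2.4.5, removed duplicates with samtools and called islands in each library against input DNA with SICER (window 200 bp, gap 600 bp, FDR 0.01); the SICER version is not given in the sources used here. The deposited files hold the position of each island and its read counts, not normalised for depth or length. The series has 36 samples, of which 12 are inputs with no file used here. Samples were grouped by mark, source and genotype from their labels.

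Start sites came from GENCODE vM21. Covered share, island width, scaled counts per kb and spanning were computed with Python 3.11.15, and interval code was tested on simulated data. Counts of regions merged over the 4 libraries of a mark and source, and called in all of them, were tested with edgeR 4.0.16 (quasi-likelihood, TMM, Benjamini-Hochberg over all regions, threshold 0.05), with DESeq2 1.42.0 as an alternative. The rule for named genes took all 8 Wnt genes, given by count or range where not by name, the 2 nearest flanking genes on each side, and other Wnt ligands whose covered share did not overlap between genotypes. The members and gene lists were chosen with earlier results of these data known. Total reads per library are not used, so a value can be compared between libraries only after scaling. Counts were simulated with one spread for all regions, estimated in each mark and source. Over regions of all sizes, edgeR recovered 47% of 4-fold changes in neurosphere H3K27me3. For hippocampus it recovered 67% in H3K27me3 and 53.5% in H2AK119ub1. A region that was not called may therefore have changed.

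Same-numbered Ctrl and cKO libraries did not deviate together in every mark and source (correlations -0.322 to 0.327), and nothing in the labels ties the numbers to animals, so no pairing was used.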

Additional observations from a re-analysis of the deposited data

Results flagged for a closer look

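One result was singled out because both sources gave effects of opposite direction. The H3K27me3 island at Wnt3 differed by 15 kb (cKO minus Ctrl) in hippocampus, with 17.4 and 12.6 kb in Ctrl against 19 and 41 kb in cKO, and by -24.4 kb in neurospheres, with 43 and 40.8 kb against 15 and 20 kb. Every cKO library was above the Ctrl libraries in hippocampus and below them in neurospheres, and the difference between the sources was not tested on width. On the counts of the merged Wnt9b/Wnt3 region, the interaction was -0.01 on the log2 scale (SE 0.36, edgeR adjusted p = 0.991). After joining islands up to 1 kb apart, the genotypes overlapped in both sources, with 41.2 and 12.6 kb against 25.8 and 50.2 kb in hippocampus and 43 and 50.8 kb against 43 and 38.4 kb in neurospheres.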

How the results depend on the processing

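Joining islands up to 1 kb apart (for width, chosen after seeing the data) moved neurosphere H3K27me3 to -14.35 kb, 4 genes and 4 spanned cKO cases, neurosphere H2AK119ub1 to 5 Ctrl and 4 cKO cases, hippocampal H3K27me3 to 4 and 5, and hippocampal H2AK119ub1 to 1 Ctrl case. With promoters of 1 kb on either side, the neurosphere covered share differed by -2.90 percentage points in H3K27me3, and 0 genes were lower in H2AK119ub1; with 5 kb, the difference was -4.58 points with 2 genes lower in H3K27me3, 1 gene was lower in hippocampal H3K27me3, and hippocampal H3K36me2 differed by 1.72 points. Scaling by all islands gave -0.298 in H2AK119ub1 and -0.297 in H3K27me3 of neurospheres for the mean difference in scaled counts per kb.

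With the called length as an offset, 1 neurosphere H3K27me3 region was called, and log2 fold changes turned to -0.14 at Wnt9b/Wnt3 in neurosphere H2AK119ub1 and, in hippocampal H3K27me3, to 0.22 at Wnt3a, 0.023 at Wnt6/Wnt10a and 0.26 at Wnt10b/Wnt1. The hippocampal H3K27me3 value at Wnt9b/Wnt3, near 0, was -0.0032 with DESeq2's size factors, -0.0040 with a minimum mean count of 100 and -0.0031 in DESeq2, and the H3K27me3 interaction there was 0.016 with size factors.

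The replicate block, which paired same-numbered libraries, called 0 regions at these genes in any mark or source. It turned the hippocampal Wnt9b/Wnt3 value to -0.0019 and raised the calls over all hippocampal H3K27me3 regions from 0 to 9. With it, 2 of the 4 hippocampal H3K27me3 regions, Wnt6/Wnt10a and Wnt3a, had an unadjusted edgeR p under 0.05 (496 of all 4387). In hippocampal H2AK119ub1 1 of the 3 had, Wnt6/Wnt10a (77 of all 2750), and in neurosphere H3K27me3 3 of the 5 (1556 of all 11262). The crossed pairing, added for neurosphere H2AK119ub1 and H3K27me3, called 0 of the 5 regions in each.

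Leaving out a library cannot create an overlap, so a count of genes whose genotypes do not overlap can stay or rise but not fall, and its range says nothing of stability. For genes lower in both cKO libraries, hippocampal H2AK119ub1 gave 0 to 2 (covered share), 0 to 5 (width) and 0 to 1 (scaled counts per kb), hippocampal H3K27me3 0 to 3, 1 to 6 and 0 to 5, neurosphere H2AK119ub1 1 to 3 (covered share) and 3 to 7 (width), neurosphere H3K27me3 3 to 5 (scaled counts) and neurosphere H3K36me2 0 to 1 (width). The upper end came without the first Ctrl library for width and scaled counts in hippocampal H2AK119ub1 and scaled counts in neurosphere H3K27me3, without the second Ctrl library in H3K36me2, and otherwise without the second cKO library. The mean difference in width in hippocampal H3K27me3 was -9.7 kb without the second and 11.3 kb without the first cKO library. Spanned cases in neurosphere H3K27me3 were 3 in Ctrl and 0 to 1 in cKO, in neurosphere H2AK119ub1 0 to 1 in Ctrl, and in hippocampal H3K27me3 1 in Ctrl and 0 to 3 in cKO. Called regions ranged from 0 to 4 in neurosphere H3K27me3 (4 without the first cKO library) and from 0 to 1 in neurosphere H2AK119ub1.

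Log2 fold changes that changed sign without one library ranged from -1.21 to 0.42 at Wnt1 in hippocampal H2AK119ub1, from -0.15 to 0.12 at Wnt3a/Wnt9a and -0.28 to 2.13 at Wnt9b/Wnt3 in neurosphere H2AK119ub1, and in hippocampal H3K27me3 from -1.23 to 0.074 at Wnt3a, -0.68 to 0.30 at Wnt10b/Wnt1 and -0.21 to 0.24 at Wnt9b/Wnt3. Interactions ranged, in H2AK119ub1, from -0.33 to 0.61 at Wnt6/Wnt10a, -0.34 to 1.90 at Wnt9b/Wnt3 and -1.22 to 0.22 at Wnt10b/Wnt1, and, in H3K27me3, from -0.22 to 0.29 at Wnt6/Wnt10a, -0.59 to 1.40 at Wnt3a/Wnt9a, -0.22 to 0.18 at Wnt9b/Wnt3 and -0.76 to 0.24 at Wnt10b/Wnt1. The causes were not tested. Of 579 recomputed values of 74 results, 495 kept their direction, call or size. The hippocampal H2AK119ub1 libraries held 987329 to 6799122 reads in islands, and the part of depth in the lack of calls there was not tested.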
